A study of Mus musculus with 9 samples.

Results

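The ISG15 conjugation system was examined by ribosome footprinting in mouse macrophages through 6 genes, Isg15, Usp18, Herc6, Ube2l6, Uba7 and Isg20, out of the 16921 genes of the deposited table. The genes were selected by name, and the choice was made with the RiboSeq fold changes of these same libraries already known, so their own values are given below as a description. RiboSeq reads the fragments of mRNA that are covered by ribosomes, and a footprint level therefore holds mRNA abundance and ribosome occupancy together. All 9 libraries came from TTP-deficient bone marrow-derived macrophages that had been immortalized with the oncogenes hcmyc and hRasG12V and then transduced with a doxycycline-inducible vector. The vector encoded GFP, its fusion to TTP (GFP-TTP) or its fusion to a mutant TTP (GFP-TTP-AA), with 3 libraries for each, and all of them received doxycycline (1 µg/ml) for 6 h in all and LPS (1 µg/ml) for 1 h. TTP, encoded by Zfp36, is an RNA-binding protein that directs mRNAs with AU-rich elements to decay, and TTP-AA is a mutant that the kinase MK2 cannot phosphorylate. The GFP cells are therefore the TTP-deficient control, and the other lines carry the same deficiency beside their transgene. Nothing in the sources used here says that the 3 libraries of a condition came from separately derived lines. The errors below are those of the DESeq2 model of these libraries, and they cannot be taken to cover the spread between lines.

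ISG15 is a small ubiquitin-like protein that interferon-treated cells attach to other proteins. The steps resemble those of ubiquitin: UBA7 is the activating enzyme (E1), UBE2L6 (also called UBCH8) the conjugating enzyme (E2), and HERC6 the main ligase (E3) in the mouse. USP18 removes ISG15 from its targets, and it also binds the interferon receptor chain IFNAR2 and dampens signalling through the receptor. All of these genes are induced by type I interferon, which macrophages make soon after LPS has activated TLR4. Isg20 encodes an interferon-induced exonuclease that degrades RNA. It carries a similar name but takes no part in ISG15 conjugation, and the label of the group does not hold for it.

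The promoter of Isg15 and the 3′UTR of Usp18 are shown because one carries the interferon-response motif and the other carries the motif that TTP is known to bind. Isg15 lies on chr4:156199424-156200818 (GRCm38, minus strand), and 5 of the 6 genes had a promoter window of 300 bases in the RefSeq table for that build. Usp18 had no window, so its promoter was not searched. The core of the interferon-stimulated response element, taken as GAAA, any 2 bases and GAAA again, was searched on both strands. It matched 3 times, with overlap, within the window of Isg15, and the middle match (chr4:156200871-156200900, minus strand) begins 72 bases before the start of the gene, with the match in capitals.
Isg15: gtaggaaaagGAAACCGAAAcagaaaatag
The same letters were not in the windows of Herc6, Ube2l6, Uba7 and Isg20, and 3.44% of 32851 promoters held them. The gamma-activated core TTCNNNGAA matched in Isg20 alone among the 5, beside 8.3% of all promoters. Isg20 had 3 windows where the others had 1 each, and that share is per window.

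In 3′UTRs of the annotation (GENCODE, GRCm38), the pentamer ATTTA was counted in 1 transcript per gene. Usp18 (chr6:121245906-121270917, plus strand) holds 2 matches in a 3′UTR of 400 bases, 85 and 106 bases after the stop codon. The second lies in the longer TTP motif TATTTAT. The pair is shown with the pentamer in capitals, from chr6:121270590-121270618 and chr6:121270611-121270639, both on the plus strand.
Usp18, first match: acgagaataataATTTAaaaacaattaag
Usp18, second match: caattaagccctATTTAtaagcaaaacta
Herc6 (chr6:57581000-57664632, plus strand) holds 8 ATTTA matches in 1718 bases, and Ube2l6 (chr2:84798828-84810176, plus strand) holds 2 in 1020 bases, none of them within TATTTAT. The 3′UTRs of Isg15 (160 bases), Uba7 (110 bases, gene at chr9:107975534-107984056, plus strand) and Isg20 (234 bases, gene at chr7:78913765-78920396, plus strand) hold none. Among the 9963 genes above the level filter that have a 3′UTR model, 68.6% held ATTTA and 29.2% held TATTTAT. These counts describe letters in a gene model and do not show binding.

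The deposited values are the means that a DESeq2 model fitted, and the observed footprints of a library cannot be read from them. A gene's 3 libraries of a condition are therefore in the same ratio to one another in every condition. Whether libraries of different conditions overlap carries no information on replicate error, which enters only through the standard errors of the authors' comparison tables. Levels below are fitted footprints divided by the size factor of the library, and a level of a condition is the geometric mean of its 3 libraries. The sums of fitted values ranged from 2570292 to 12804501 per library. As a check of the labels, Zfp36 had levels of 459, 926 and 1536 in GFP, GFP-TTP and GFP-TTP-AA. Footprints on the transgene and on what the cells keep of their own gene cannot be told apart in these values. The difference between both TTP lines was 0.73 ± 0.25 on the log2 scale (SE, n = 3 against 3; Wald test on the DESeq2 errors, Benjamini-Hochberg adjusted p = 0.039), and it missed the threshold, with an adjusted p of 0.064, when the 3 comparisons were adjusted together. The footprint level of Zfp36 was thus higher in the GFP-TTP-AA line than in the GFP-TTP line, with a call that depended on the adjustment. The mutation and the line cannot be told apart here. The part of the Zfp36 level in the results below was not tested.

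All 8 macrophage markers were in the table, Adgre1 (F4/80) under its older symbol Emr1, and their summed levels were 93710, 73908 and 106550 in GFP, GFP-TTP and GFP-TTP-AA, led by Lyz2. Of the 7 tested, 3 were lower in GFP-TTP than in GFP past the threshold and the same 3 were higher in GFP-TTP-AA than in GFP-TTP. Over all genes tested, 2.09% and 10.2% passed in these comparisons. Adgre1 had levels of 3663, 2290 and 5344 in GFP, GFP-TTP and GFP-TTP-AA, with log2 changes of -0.68 ± 0.16 in GFP-TTP against GFP (adjusted p = 0.0026), 0.54 ± 0.16 in GFP-TTP-AA against GFP (adjusted p = 0.029) and 1.22 ± 0.16 in GFP-TTP-AA against GFP-TTP (adjusted p = 4.7e-12). Lyz2 (lysozyme) changed by -0.48 ± 0.12 in GFP-TTP against GFP (adjusted p = 0.0059, and 0.11 with the median change of its chromosome subtracted) and by 0.64 ± 0.12 in GFP-TTP-AA against GFP-TTP. Fcgr1 (a high-affinity IgG receptor) changed by -0.95 ± 0.22 (adjusted p = 0.0021) and 0.72 ± 0.22 in the same comparisons. These 3 markers and the genes Isg15 and Usp18 all had their lowest level in GFP-TTP. The list was not uniform, as 2 of the 7 tested markers were higher in GFP-TTP than in GFP, short of the threshold. They were Itgam (2968, 3187 and 3191 in GFP, GFP-TTP and GFP-TTP-AA) and Cd14 (9538, 10287 and 11923). Csf1r and Cd68 changed by -0.17 and -0.12 in GFP-TTP against GFP, also short of it. The dendritic cell, B cell, T cell and fibroblast marker lists had summed levels of 0.741 to 4.14 in any condition. Of 5 neutrophil markers 2 were in the table: S100a8 was at levels of 27, 25.6 and 55.9 in GFP, GFP-TTP and GFP-TTP-AA, and Mpo stood under 1. By the same Wald test S100a8 was higher in GFP-TTP-AA than in GFP (1.05 ± 0.25, adjusted p = 0.0023) and than in GFP-TTP (1.13 ± 0.25, adjusted p = 0.00024). In bulk samples, fewer cells of a type and less RNA per cell cannot be told apart, and the part of these shifts in the results below was not tested.

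Isg15, the modifier itself, was lowest in GFP-TTP and highest in GFP-TTP-AA. Its level in the 3 GFP libraries was 54.2, 59 and 91.5. In the GFP-TTP libraries it was 44, 48 and 74.4, and in the GFP-TTP-AA libraries 74.7, 81.4 and 126. Replicate 3 stood above the others in each condition, as the model of the authors makes it do for all 3 conditions at once. The change was -0.30 ± 0.22 on the log2 scale in GFP-TTP against GFP (SE, n = 3 against 3; 95% interval -0.74 to 0.14), and 0.46 ± 0.22 in GFP-TTP-AA against GFP (0.03 to 0.90), neither past the threshold of an adjusted p of 0.05. It rose 1.7-fold in GFP-TTP-AA relative to GFP-TTP, by 0.76 ± 0.22 (0.33 to 1.20), which passed the threshold.

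Usp18, the ISG15 protease, was the gene of the group with the lowest level in GFP-TTP relative to GFP. Its level was 77.5, 66.6 and 89.2 in the GFP libraries, 28.7, 24.7 and 33.1 in the GFP-TTP libraries, and 62.2, 53.5 and 71.6 in the GFP-TTP-AA libraries. The GFP-TTP libraries are the low ones, at 37.1% of the GFP level. On the log2 scale Usp18 was lower in GFP-TTP than in GFP by a change of -1.43 ± 0.24 (95% interval -1.91 to -0.96) and 2.17-fold higher in GFP-TTP-AA than in GFP-TTP, a change of 1.11 ± 0.24 (0.64 to 1.59), and both passed the threshold. Both comparisons use the same GFP-TTP libraries. In GFP-TTP-AA against GFP the change was -0.32 ± 0.24 with an interval from -0.79 to 0.15, and both an equal level and a remaining decrease lie within it.

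**Figure D1:**
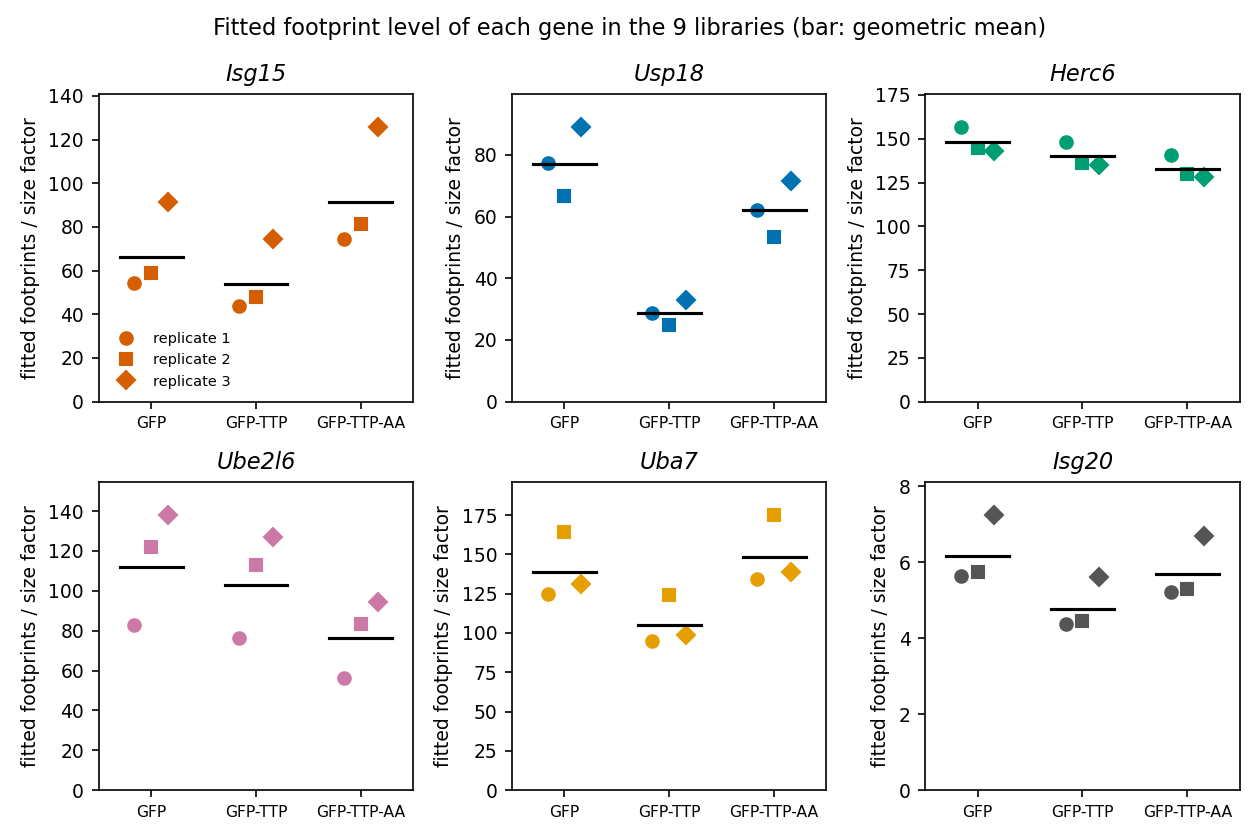
Fitted footprint level (footprints divided by the size factor, linear axis from 0) of the 6 genes in the 9 libraries. Symbols are replicates 1 to 3 and bars the geometric mean of a condition; Usp18 falls from 77.2 in GFP to 28.6 in GFP-TTP and stands at 62 in GFP-TTP-AA, while Herc6 lies between 133 and 148, and the constant ratio among replicates follows from the fitted values.

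The activating enzyme gene Uba7 had levels of 125, 164 and 131 in GFP, 94.6, 124 and 98.6 in GFP-TTP and 134, 175 and 139 in GFP-TTP-AA. Its lowest condition was GFP-TTP, as for Isg15 and Usp18. The changes were -0.41 ± 0.21 in GFP-TTP against GFP (95% interval -0.82 to 0.01), 0.09 ± 0.21 in GFP-TTP-AA against GFP (-0.32 to 0.50) and 0.50 ± 0.21 in GFP-TTP-AA against GFP-TTP (0.09 to 0.91). None passed the adjusted threshold.

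The conjugating enzyme gene Ube2l6 had levels of 82.7, 122 and 138 in GFP, 76.3, 113 and 127 in GFP-TTP and 56.5, 83.4 and 94.4 in GFP-TTP-AA. Here the GFP-TTP-AA libraries were the low ones. The change was -0.12 ± 0.23 in GFP-TTP against GFP (95% interval -0.57 to 0.34), -0.55 ± 0.23 in GFP-TTP-AA against GFP (-1.01 to -0.09) and -0.43 ± 0.23 in GFP-TTP-AA against GFP-TTP (-0.89 to 0.02), and none passed the adjusted threshold. The order of its conditions was thus not that of Isg15, whose highest level was in GFP-TTP-AA.

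The ligase gene Herc6 had levels of 157, 145 and 143 in GFP, 148, 136 and 135 in GFP-TTP and 141, 130 and 128 in GFP-TTP-AA. Its changes were -0.08, -0.16 and -0.07 (each ± 0.19) in GFP-TTP against GFP, GFP-TTP-AA against GFP and GFP-TTP-AA against GFP-TTP. The 95% intervals, in the same order, were -0.46 to 0.29, -0.54 to 0.22 and -0.45 to 0.31, and they leave room for a modest change in either direction. Isg20 had levels between 4.36 and 7.24 in the libraries, and its mean of 5.58 was under the 10 that was asked of a gene. It was not tested, and the levels of its conditions were 6.16, 4.77 and 5.7 in GFP, GFP-TTP and GFP-TTP-AA.

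Of the 5 genes tested, 1 (Usp18) passed the threshold in GFP-TTP against GFP, where 2.09% of 9938 genes did. In GFP-TTP-AA against GFP, 0 of 5 passed the Wald test on the DESeq2 errors after adjustment, where 3.03% of 10103 genes did. In GFP-TTP-AA against GFP-TTP, 2 of 5 (Isg15 and Usp18) passed, where 10.2% of 10103 genes did. An unadjusted p under 0.05 was found for 1 (Usp18), 2 (Isg15 and Ube2l6) and 3 (Isg15, Usp18 and Uba7) of the 5 in these comparisons. The share of all genes with an unadjusted p under 0.05 was not computed, for these counts or for those of the lists below. The median change over the 5 was -0.30, -0.16 and 0.50 in the 3 comparisons, and the median over all genes tested was 0.00, 0.01 and 0.01. As the genes were chosen with these changes known, nothing is read from the counts. Whether the change of one gene differed from that of another was not tested.

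**Figure D2:**
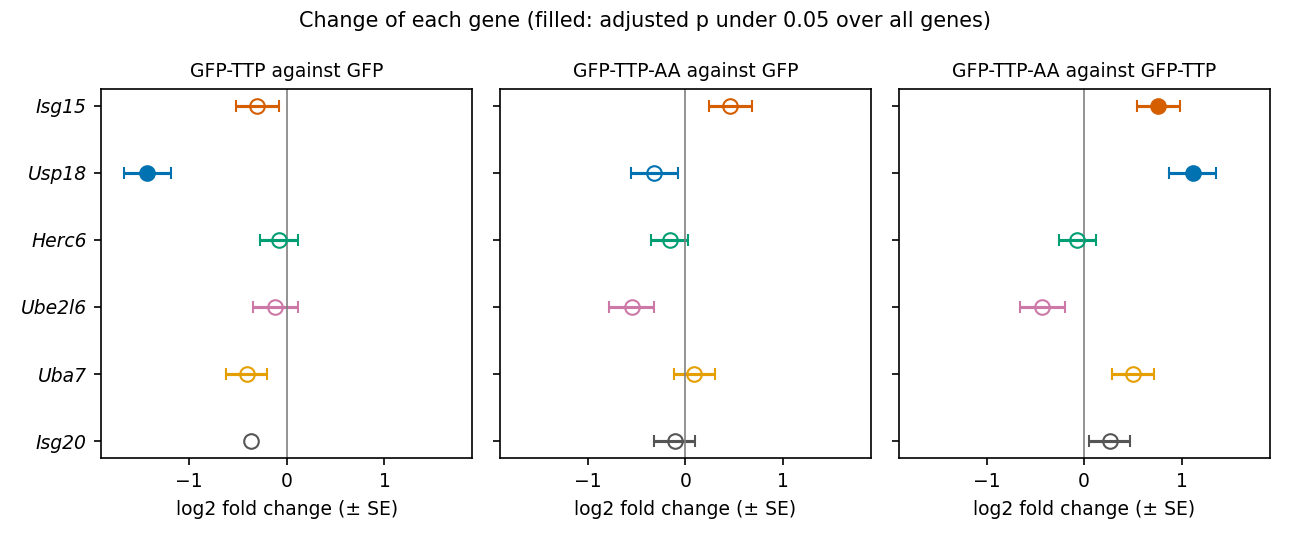
Log2 fold change (horizontal axis) of the 6 genes in the 3 comparisons, with bars of ± 1 SE and filled points for an adjusted p under 0.05. Usp18 is filled at -1.43 in GFP-TTP against GFP, Isg15 and Usp18 at 0.76 and 1.11 in GFP-TTP-AA against GFP-TTP; Isg20 was not tested and has no error in the first comparison.

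The levels of different genes were compared per kilobase of coding sequence. In GFP cells the order was Ube2l6 (243 per kilobase), Isg15 (138), Usp18 (70), Herc6 (49.2), Uba7 (47.5) and Isg20 (11.3). The order of neighbours was the same at each of the 3 replicate numbers, except that Herc6 was above Uba7 at 2 of them. In GFP-TTP cells Usp18 moved to the fifth place, at 25.9 per kilobase, below Herc6 (46.4) and Uba7 (35.8), and Ube2l6 (225) and Isg15 (112) again stood first. In GFP-TTP-AA cells Isg15 (190) had the highest level, followed by Ube2l6 (166), Usp18 (56.2), Uba7 (50.6), Herc6 (44.1) and Isg20 (10.5). There Isg15 was above Ube2l6, Usp18 above Uba7 and Uba7 above Herc6 at 2 of the 3 replicate numbers each. These neighbours were not separated beyond the variation with the replicate number, and no test of levels between genes was made. The modifier and its E2 thus carried more footprints per kilobase than the E1, the E3 and the protease in each condition.

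The authors name the library date as a term of their model. The samples are labelled by replicate number alone, which is taken here to stand for that date. These genes varied with the replicate number. For Isg15 replicate 3 was 1.69-fold above replicate 1, a log2 difference of 0.76, as large as the change of Isg15 in GFP-TTP-AA against GFP-TTP. For Ube2l6 the same ratio was 1.67-fold. The SD of this log2 difference over all genes kept was 0.29, and 1.49% of them had a larger value than Isg15. For Usp18 it was 1.15-fold, for Uba7 1.04-fold and for Herc6 0.909-fold. The replicate number was a term of the fitted values in each condition and is not part of the changes above. Whether the changes differed between replicate numbers cannot be seen in fitted values.

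The levels of the group are low, and the errors varied with the level. The SE of GFP-TTP-AA against GFP-TTP had a median of 0.25 among genes with a mean level of 10 to 30, of 0.23 from 30 to 100, and of 0.14 above 1000. The members of the group with an error lay between 0.19 and 0.24. DESeq2 in the version that the authors name (1.6.3) shrinks fold changes toward 0 by default, more so for genes with few reads, so the fold changes of Isg15 and Usp18 are likely to understate the ratio of the observed footprints. The errors belong to these shrunken changes and do not measure replicate spread alone. Isg20, with a mean level of 5.58, had an SE of 0.21 in GFP-TTP-AA against GFP-TTP, and no gene kept had more than 0.25.

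**Figure D3:**
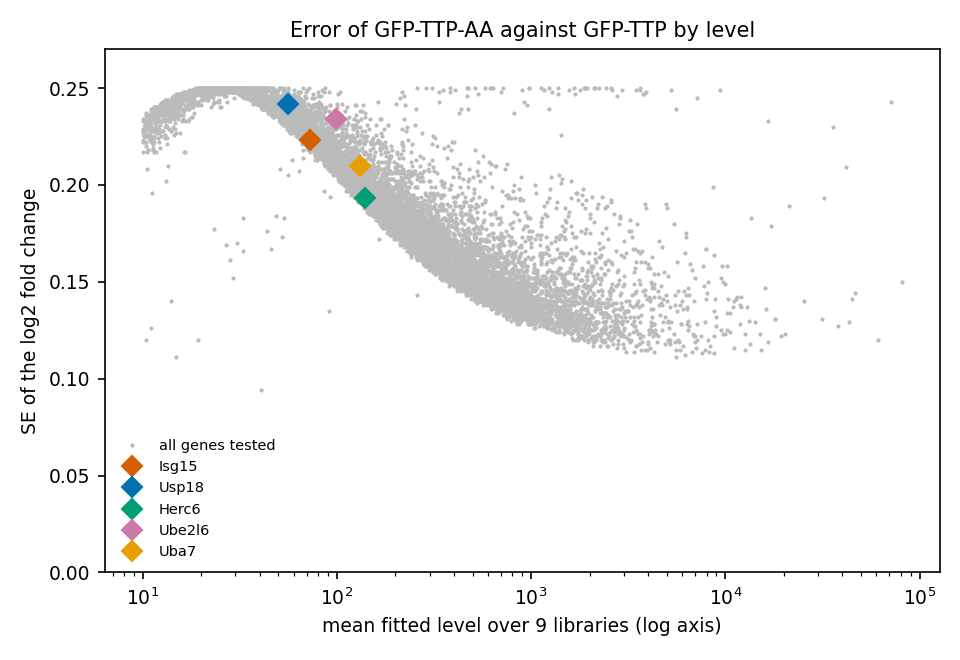
SE of the log2 fold change of GFP-TTP-AA against GFP-TTP (vertical axis) against the mean level over 9 libraries (log axis) for 10103 genes in grey. Usp18, Isg15, Ube2l6, Uba7 and Herc6, with mean levels of 56.4 to 140, have errors of 0.19 to 0.24, beside a largest value of 0.25.

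A list of other interferon-stimulated genes, 38 of 40 of them in the table and 35 above the filter, was set beside the group. It was also drawn up with results of these data known and is a description. In GFP-TTP against GFP, 16 of the 35 passed the threshold, all lower in GFP-TTP, and the median change was -0.73. In GFP-TTP-AA against GFP, 4 passed, all higher, with a median of 0.28. In GFP-TTP-AA against GFP-TTP, 28 passed, all higher, with a median of 0.88. Over all genes tested, 2.09%, 3.03% and 10.2% passed in these 3 comparisons. The strongest decrease was that of Lgals3bp, a secreted galectin-3-binding glycoprotein, at 1115, 174 and 1744 in GFP, GFP-TTP and GFP-TTP-AA, with a log2 change of -2.68 ± 0.15 in GFP-TTP against GFP (adjusted p = 2.1e-68). The oligoadenylate synthetase Oas3 went from 359 to 145 and stood at 372 in GFP-TTP-AA, with a change of -1.31 ± 0.21 in GFP-TTP against GFP (adjusted p = 1.1e-07). The immunoproteasome subunit Psmb8 fell by 0.82 ± 0.15 (adjusted p = 1.5e-05) and the ubiquitin ligase gene Dtx3l fell by 0.83 ± 0.23 (adjusted p = 0.02) in the same comparison. Ifitm3, Parp14, Oas1a and Parp9 did not pass in GFP-TTP against GFP, and rose in GFP-TTP-AA against GFP-TTP by 0.50, 0.87, 0.97 and 0.68 on the log2 scale.

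Usp18 lay near the lower end of this list in GFP-TTP against GFP. Lgals3bp and Sp100 (-1.76), named after their values were seen, were the 2 of the 35 with a lower change, and 0.131% of all genes tested had one. Isg15 and Uba7 had 29 and 27 of the 35 below them, and Herc6 had 34. In GFP-TTP-AA against GFP-TTP, Usp18 had 22 list genes below it, Isg15 12 and Uba7 7. All 35 list genes were above Herc6 and above Ube2l6 in that comparison, and all 35 were above Ube2l6 in GFP-TTP-AA against GFP too. The lowest list genes were Bst2 (tetherin), at -0.01 ± 0.19 in GFP-TTP-AA against GFP-TTP, and Phf11d, at -0.35 ± 0.23 in GFP-TTP-AA against GFP. Herc6 (-0.07 ± 0.19) lay within its error of Bst2, and Ube2l6 (-0.55 ± 0.23) within its error of Phf11d. Ube2l6 was at -0.43 ± 0.23 in GFP-TTP-AA against GFP-TTP. A gap between genes carries the errors of both, and its own error was not computed. None of these gaps was tested. The list is also not complete. Ifi47, an interferon-inducible GTPase outside it, had changes of -0.13 in GFP-TTP against GFP and -0.53 in GFP-TTP-AA against GFP, close to those of Ube2l6, with levels of 187, 171 and 129 in GFP, GFP-TTP and GFP-TTP-AA. Bst2, Phf11d and Ifi47 were named after their values were seen.

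**Figure D4:**
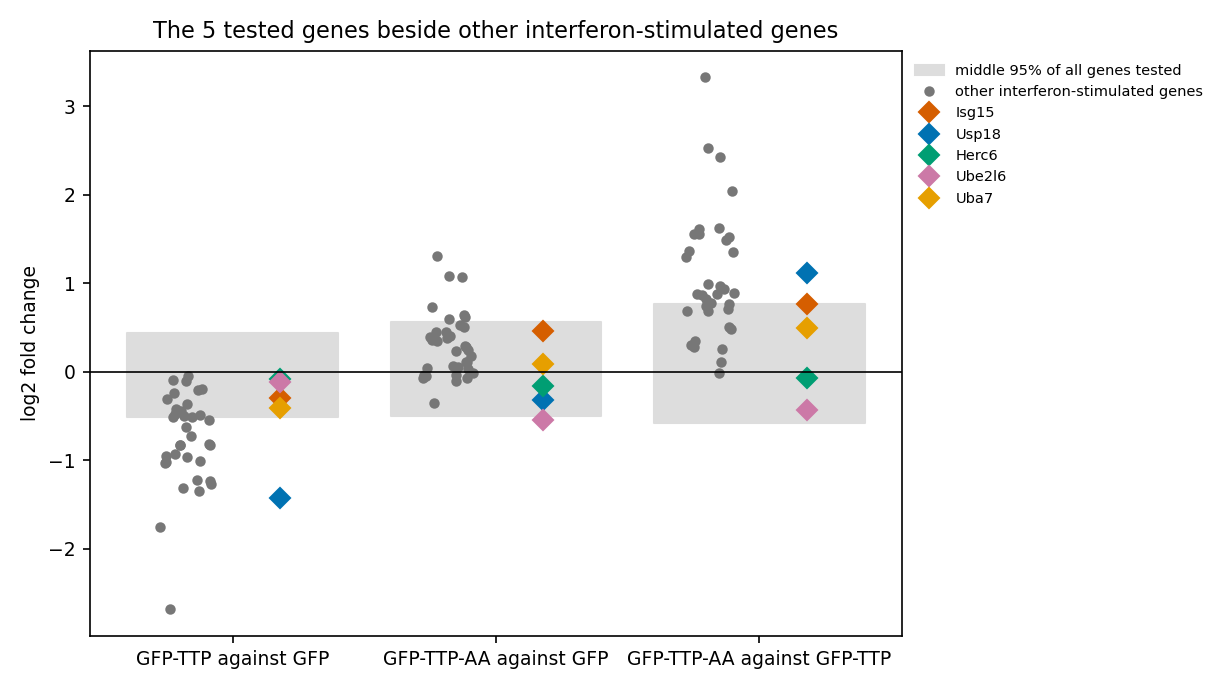
Log2 fold change (vertical axis) of 35 other interferon-stimulated genes (grey points) and of the 5 tested genes (coloured diamonds) in the 3 comparisons; grey boxes hold the middle 95% of all genes tested. In GFP-TTP against GFP Usp18, at -1.43, is below all but 2 of the grey points, and in GFP-TTP-AA against GFP-TTP Herc6 (-0.07) and Ube2l6 (-0.43) are below all of them.

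Genes that act before the group in interferon signalling were all above the filter, 10 of 10. In GFP-TTP against GFP, 0 of 9 tested passed the Wald test on the DESeq2 errors and 1 had an unadjusted p under 0.05. In GFP-TTP-AA against GFP-TTP, 3 of 10 passed, all higher, beside 10.2% of all genes tested. These were Ifnar1, a receptor chain (0.73 ± 0.16, adjusted p = 0.00026), Ifnar2, the chain that USP18 binds (0.48 ± 0.15, adjusted p = 0.023), and Irf9, the DNA-binding subunit of the ISGF3 complex (1.16 ± 0.25, adjusted p = 0.00015). Ifnar1 also passed in GFP-TTP-AA against GFP (0.56 ± 0.16, adjusted p = 0.021). Once the median change of the chromosome was subtracted, this call was lost (0.43, adjusted p = 0.14), and so was that of Ifnar2 in GFP-TTP-AA against GFP-TTP (0.31, adjusted p = 0.21). Ifnb1, the interferon gene itself, had low levels of 13.7, 12.1 and 15.2 in GFP, GFP-TTP and GFP-TTP-AA, with intervals that the errors of 0.24 leave wide.

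The other reported ISG15 ligases and proteases (Arih1, Trim25, Usp5, Usp14, Usp16 and Usp21) were all above the filter. In each comparison 0 of 6 passed the Wald test on the DESeq2 errors and 0 had an unadjusted p under 0.05. Trim25, for example, had levels of 1449, 1344 and 1448 in GFP, GFP-TTP and GFP-TTP-AA. Among 20 genes of ubiquitin, SUMO, NEDD8 and UFM1 conjugation, 0 passed in GFP-TTP against GFP, where 2 had an unadjusted p under 0.05. In GFP-TTP-AA against GFP, 1 passed, the modifier gene Sumo3 (0.52 ± 0.16, adjusted p = 0.033). In GFP-TTP-AA against GFP-TTP, 3 passed: Ube2l3, which encodes the E2 enzyme UBCH7, a relative of UBE2L6, rose by 0.54 ± 0.16 (adjusted p = 0.016), the SUMO protease gene Senp3 fell by 0.66 ± 0.17 (adjusted p = 0.0034) and Sumo2 fell by 0.38 ± 0.12 (adjusted p = 0.022). Ube2l3 stood at 401, 341 and 494 in GFP, GFP-TTP and GFP-TTP-AA, and its change was not tested against that of Ube2l6. With the median change of the chromosome subtracted, Sumo3 (0.48, adjusted p = 0.06), Ube2l3 (0.37, adjusted p = 0.15) and Sumo2 (-0.27, adjusted p = 0.15) lost their calls, and Senp3 kept its own (-0.56, adjusted p = 0.021). Of 5 exonuclease genes related to Isg20, 0 passed in any comparison, and 2 had an unadjusted p under 0.05 in GFP-TTP against GFP. Over all genes tested, 2.09% passed in GFP-TTP against GFP, 3.03% in GFP-TTP-AA against GFP and 10.2% in GFP-TTP-AA against GFP-TTP. These lists are small, and nothing is read from their counts.

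The genes whose pattern was most like that of Isg15 and Usp18 were found by the distance between log2 changes in GFP-TTP against GFP and in GFP-TTP-AA against GFP, over 10103 genes and 3 conditions. Both changes share the GFP libraries. For Isg15 these were Id2, a transcriptional inhibitor (distance 0.030), Prune2 (0.031) and Tmem176a (0.035). These distances are smaller than the SE of 0.22 of each of the Isg15 changes used, so the errors do not settle which genes lie nearest. For Usp18 the nearest were farther off, H2-T23, a class Ib histocompatibility gene whose footprints can be shared with its relatives (0.368), Bst1, a cell-surface ectoenzyme (0.381), and Magee1 (0.381). Bst1, with levels of 239, 105 and 234 in GFP, GFP-TTP and GFP-TTP-AA, had its lowest level in GFP-TTP as well.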

How the data were processed

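The authors sequenced ribosome-protected fragments (ARTseq kit), mapped them to mm10 (GRCm38) with TopHat, keeping at most 2 alignments per read, and fitted DESeq2 1.6.3. TopHat2 2.0.12 is named in the submitters' processing notes, and the methods give another version. The deposited table, named as normalized counts, holds the fitted signal of each library (16932 lines, 11 of them repeats): after terms for condition and replicate number, its log2 values left a residual SD of 1.66e-15. The comparison tables of the authors hold log2 fold changes, their log2 standard errors, test statistics and p-values. Their standard errors were used, their fold changes served to find the scaling constants alone, and their p-values were not used.

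Size factors (0.414 to 2.13) were recovered from those constants and from the medians over genes. Genes with a mean level of at least 10 were kept (10103). Log2 changes of levels were divided by their SE, which gave two-sided Wald p-values, adjusted after Benjamini-Hochberg over all genes kept (threshold 0.05). A gene without an SE in a comparison was not tested there. Python 3.11.15, numpy 2.4.6, pandas 2.3.3, scipy 1.17.1 and matplotlib 3.10.9 were used, and the steps were tested on simulated data.

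The members and the lists were chosen with earlier results of these data known. The text names all 6 members, from each other list the genes past the threshold (at most 8, by highest level), Zfp36, and the 3 nearest genes of each member past the threshold. Trim25, Ifnb1, Itgam, Cd14, Csf1r, Cd68, Bst2, Phf11d, Sp100 and Ifi47 were named outside this rule, after their values were seen. A list gene missing under its symbol was looked up by Ensembl identifier and RefSeq synonyms (Adgre1).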

Additional observations from a re-analysis of the deposited data

How the results depend on the processing

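Under 7 alternatives (no filter on low values, a mean of at least 50, median-of-ratios size factors, scaling to the sum of fitted values, subtraction of chromosome medians, adjustment over the 3 comparisons together, and a pseudocount of 10, which gives a value and no call), all 105 values of the members kept their direction, and no call changed where one was made. The filter settings and the joint adjustment reuse the same log2 changes, so their values could not change direction. The remaining alternatives use the same fitted values and the same errors. One value moved by more than its SE, that of Usp18 in GFP-TTP against GFP, to -1.17 with the pseudocount. The numbers of members past the threshold (1, 0 and 2) were the same under each alternative with a call. With chromosome medians subtracted, 0 interferon signalling genes passed in GFP-TTP-AA against GFP, and the conjugation list of ubiquitin, SUMO, NEDD8 and UFM1 had 0 in that comparison and 1 in GFP-TTP-AA against GFP-TTP. Other counts of lists and of all genes stayed within 1.5 times their value.

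No paired analysis was possible because the deposited values are fitted with the replicate number as a term and hold no observed spread. For the same reason leaving out each replicate and a fit with no replicate block were not run. How far 1 library decides a value is not known here. Isg20 was under the level filter, and changes of 0.46 (Isg15), 0.50 (Uba7) and -0.55 (Ube2l6) were not called at these errors.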
